A study of Mus musculus with 8 samples.

Results

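The 45 genes described here are effectors, sensors and signalling genes of the type I interferon response. They were picked by symbol, with earlier results of these data known, from the 15867 genes of a deposited table of normalized gene counts. All 45 were in the table, and all 45 had a mean of at least 10 and entered the test. RNA was sequenced, after poly(A) selection, from cells of obese mouse adipose tissue that were selected for the macrophage surface protein F4/80, and the design asks which transcripts differ when a pair of microRNA clusters is lost. The knockout group (4 libraries) had the genotype Mirc11fl/fl Mirc22fl/fl Lyz2Cre/Cre, and the control group (4 libraries) had Mirc11fl/fl Mirc22fl/fl Lyz2+/+. Both groups thus had Mirc11 and Mirc22 flanked by loxP sites. These clusters encode members of the miR-24, miR-27 and miR-23 families. Both groups were fed a high-fat diet for 20 weeks. Cre was knocked into both alleles of Lyz2, whose promoter is active in macrophages, monocytes and neutrophils, so cells of other lineages in the preparation keep the clusters. No group carried Cre with intact clusters, so the loss of the clusters, the presence of Cre and the loss of Lyz2 cannot be told apart. The labels call the libraries biological replicates without saying whether each is 1 mouse, so that p-values measure the spread between these libraries.

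Type I interferons are cytokines released by cells that sense foreign or misplaced nucleic acid. They bind the receptor of Ifnar1 and Ifnar2, whose kinases phosphorylate STAT2. With IRF9 it forms part of a complex that enters the nucleus and binds the interferon-stimulated response element (ISRE) in the promoters of many genes, whose products block viral replication. Interferon gamma acts through its own receptor on an overlapping set, to which the guanylate-binding proteins, Irf1 and the antigen-processing genes respond strongly. Macrophages express many interferon-stimulated genes at a basal level without infection.

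Libraries held between 31789395 and 46621080 reads, recovered from the deposited values. Lyz2, the locus of the Cre knock-in, measured 174 to 273 in knockout and 156727 to 204853 in control libraries, so that all 8 labels match at this gene, while the microRNAs of the clusters were not analysed here. Limma tests, two-sided, on log2(normalized count + 1) over 15862 genes, adjusted by Benjamini and Hochberg's method and called at 0.05, called 196 genes higher in knockout and 377 lower. Differences below are knockout minus control on that log2 scale, with their standard error (SE), and adjusted p-values are from this fit unless another is named. The preparations also held transcripts of other cells: Adgre1, which encodes F4/80, measured 37439.8 to 43035 in knockout and 39565 to 54126 in control libraries, and the endothelial cadherin Cdh5 measured 18653 to 27327 in knockout and 11096 to 20492 in control libraries.

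A pair of control libraries lay at opposite ends of the interferon genes. Control replicate 4 was the highest control for 30 of the 45 genes (66.7%), against 27.9% of all genes tested. It was the highest of all 8 libraries for 16 (35.6%), against 14.6% of all genes tested. Control replicate 1 was the lowest of all 8 libraries for 34 of the 45 (75.6%), against 19.7% of all genes tested. Among the knockout libraries, replicate 3 was the highest for 24 genes and replicate 4 the lowest for 25. Over all 15862 genes tested this held for 3453 and 4078. The median gene of the list lay above its 8-library mean by 0.18, 0.08 and 0.25 in knockout replicates 1, 2 and 3 and was at -0.0027 in knockout replicate 4. In control replicates 1 to 3 it lay at -0.38, -0.18 and -0.09, and in control replicate 4 at 0.15. Knockout replicates 1 to 3 thus stood above control replicates 1 to 3, while control replicate 4 stood above knockout replicates 2 and 4. Where leaving out control replicate 4 moved the difference of 1 of the 45 genes by over 1.5 times, the value without it is given too. Leaving out control replicate 1 instead moved the median difference down, to 0.11. Without control replicate 1 the difference was 0.10 for Stat2, 0.04 for Irf1, 0.11 for Gbp2, 0.21 for Gbp3 and 0.04 for Psmb9. It was 0.007 for Parp9, 0.02 for Ifih1, 0.08 for Bst2, 0.05 for Rtp4, 0.24 for Gbp7 and 0.33 for Zbp1. For Sp100 it was 0.13, for Ifi35 0.09 and for Parp14 0.09. It was -0.12 for Tap1, -0.08 for Psmb8, -0.10 for Oasl2 and -0.10 for Samhd1. These are the genes that moved by over 1.5 times without control replicate 1. The differences of Ifnar1, Irf9, Eif2ak2, Herc6 and Trim25 did not fall in that fit.

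**Figure D1:**
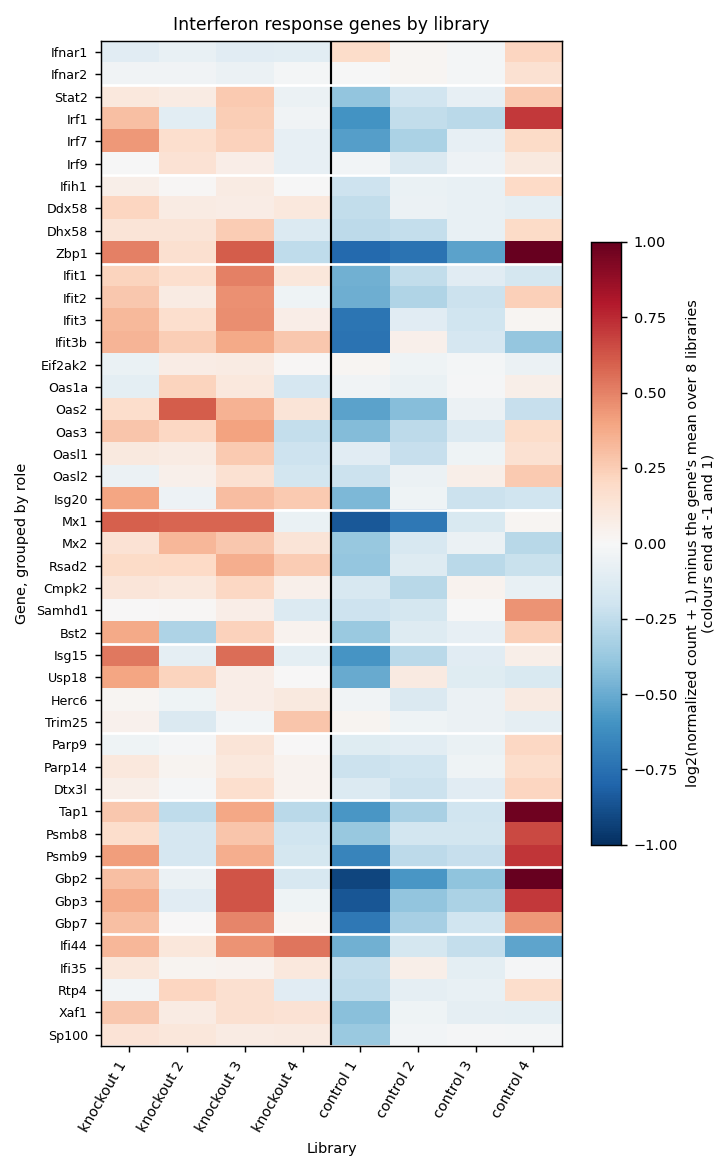
Heat map of the 45 interferon response genes (down the page, in blocks by role) in each of the 8 libraries (knockout left of the line, control right of it); colour gives log2(normalized count + 1) minus the gene's mean over the 8 libraries, with colours ending at -1 and 1. Control replicate 1 is blue in most genes, and control replicate 4 is red in Zbp1, Tap1, Psmb8, Psmb9, Irf1 and the guanylate-binding proteins but pale or blue in Rsad2, Ifi44, Mx2 and Ifit3b.

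Interferon response genes leaned higher in knockout preparations by small amounts, and 4 of the 45 rose past the threshold while 0 fell. The 4 were Rsad2, Oas2, Ifi44 and Ifit1, with fold changes of the mean between 1.42 and 1.64, and 41 did not pass. Of all genes tested, 1.24% were called higher and 2.38% lower. The difference was positive for 41 of the 45 genes, against 8007 of 15862 (50.5%) of all genes, and its median was 0.21 against 0.00. Scaling each library to the same total moved the median of all genes to 0.06 and gave 43 positive differences, and DESeq2 gave 39. The genes that changed sign under another scaling or tool were Samhd1, Oasl2, Tap1 and Psmb8, all with differences near 0. The groups were separate, every knockout library above every control library, for 11 genes (24.4%), where 5.52% of all genes tested did so, and the other way round for 2 (4.44%), where 8.21% of all genes did so. Unadjusted limma p-values under 0.05 were found for 17 higher genes, where 10.8% of all genes tested had them, and for 1 lower gene, where 10.4% had them.

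Rsad2 encodes viperin, a radical enzyme that makes a chain-terminating nucleotide and blocks several viruses. It measured 1328, 1336, 1491 and 1389 in knockout replicates 1 to 4, against 887, 1061, 964 and 995 in control replicates 1 to 4. The lowest knockout library lay above the highest control library by more than the SD of either group (1386 ± 75.1 in knockout and 977 ± 72.5 in control, SD, n = 4 each). Its log2 difference was 0.51 (SE 0.07, adjusted p = 0.00824), and it was the only one of the 4 called in each of the 8 fits run with 7 libraries. Oas2, an enzyme that makes the 2-5A messenger of RNA decay when it binds double-stranded RNA, measured 2315, 3125, 2612 and 2241 in knockout replicates 1 to 4, against 1415, 1529, 1977 and 1750.0 in control replicates 1 to 4. Knockout replicate 2 was the highest and control replicate 1 the lowest, with no overlap. The difference of Oas2 was 0.62 (SE 0.13, adjusted p = 0.0372).

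Ifi44, a cytosolic protein induced by interferon, measured 235, 202, 255 and 270.1 in knockout replicates 1 to 4, against 133, 165, 158 and 129 in control replicates 1 to 4. Its lowest library was control replicate 4, which was the highest control for most other genes of the list. The difference of Ifi44 was 0.71 (SE 0.13, adjusted p = 0.0248). Ifit1, which binds viral RNA that lacks the methylated cap of the host and keeps it from ribosomes, measured 393, 378, 476 and 363 in knockout replicates 1 to 4, against 241, 283, 310.3 and 297 in control replicates 1 to 4. The groups did not overlap, with knockout replicate 3 the highest. The difference of Ifit1 was 0.51 (SE 0.12), just past the threshold at adjusted p = 0.0496.

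The calls of Oas2, Ifi44 and Ifit1 were lost in all or most fits of 7 libraries, whichever library was left out. Their differences in those fits ran from 0.53 to 0.71 for Oas2, 0.66 to 0.79 for Ifi44 and 0.42 to 0.55 for Ifit1. The calls over all genes fell as well, from 196 higher and 377 lower to between 163 and 502 in both directions together. Among those 8 fits, Oas2 and Ifit1 were called in 0 of 8 and Ifi44 in 2 of 8, with adjusted p of 0.0504 to 0.0928 for Oas2, 0.0745 to 0.115 for Ifit1 and up to 0.0711 for Ifi44. A quasi-likelihood test in edgeR on the recovered reads called the same 4 genes and 0 lower (1.24% and 2.37% of all genes tested there). DESeq2 on the recovered reads called 11 higher, where it called 4.2% of all genes higher, and 1 lower, where it called 5.62% of all genes lower. The 7 added to the 4 were Ifit3, Ifit3b, Mx1, Mx2, Isg20, Ddx58 and Xaf1, and the lower gene was Ifnar1. The authors' deposited table of a DESeq2 comparison lists 11 of the genes as higher in knockout and 1 as lower at adjusted p under 0.05. Its adjusted p-values for Ifnar1, Ddx58 and Mx1 (0.0293, 0.00976 and 0.00664) equal those of DESeq2 on the recovered reads. It is the same test on the same libraries and so no separate evidence.

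**Figure D2:**
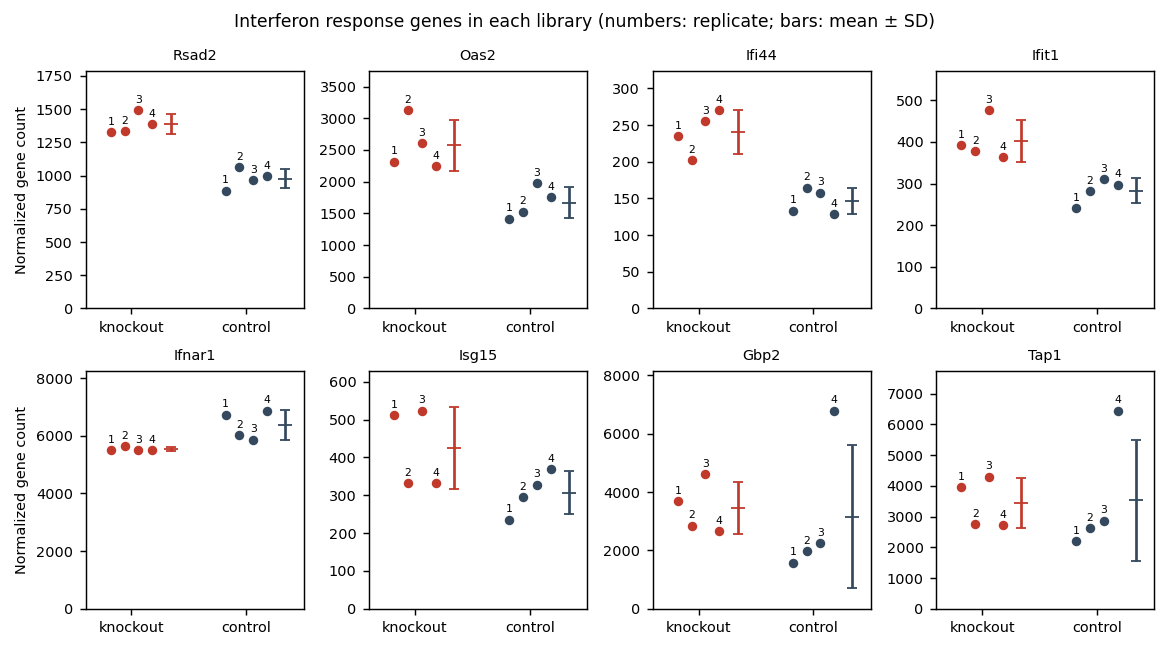
Normalized gene counts (vertical axes, starting at 0) of 8 interferon response genes in each library, knockout left of control; points are libraries with their replicate number, and the bar beside them is the mean ± SD (n = 4). The groups are separate for Rsad2, Oas2, Ifi44, Ifit1 and Ifnar1, while control replicate 4 lies above every knockout library for Gbp2 (6794) and Tap1 (6446).

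The promoters of several of these genes hold letters that match the element that the complex of STAT2 and IRF9 binds. RefSeq windows from 250 bases before to 50 bases after the start site (GRCm38.p6, the assembly of mm10) were found for 36 of the 45 genes, some with more than 1 window, and each was searched on both strands for the core of the ISRE, written here as GAAA, any 2 bases and GAAA again. It was found in 15 of the 36 (41.7%), against 476 of 11904 tested genes with a window (4%). The genes were picked for their part in the interferon response, so this share describes that choice and not these libraries. The following 140 bases lie directly before the start site and are shown because 3 of the genes are among the 4 that rose and the other two are the ubiquitin-like Isg15 and the guanylate-binding Gbp2. Capitals mark that ISRE core on either strand, lower case the rest, and each is given 5′ to 3′ in the gene's own direction.
Rsad2 (chr12:26456453-26456592, minus strand): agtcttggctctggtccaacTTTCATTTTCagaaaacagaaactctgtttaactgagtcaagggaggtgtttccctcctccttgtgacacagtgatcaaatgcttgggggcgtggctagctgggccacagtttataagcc
Ifit1 (chr19:34640749-34640888, plus strand): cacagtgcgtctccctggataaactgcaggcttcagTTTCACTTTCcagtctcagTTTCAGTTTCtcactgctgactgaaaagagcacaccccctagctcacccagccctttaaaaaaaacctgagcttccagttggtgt
Ifi44 (chr3:151749911-151750050, minus strand): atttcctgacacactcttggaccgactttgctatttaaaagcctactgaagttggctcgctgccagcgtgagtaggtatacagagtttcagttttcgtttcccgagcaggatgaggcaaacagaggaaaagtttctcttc
Isg15 (chr4:156200819-156200958, minus strand): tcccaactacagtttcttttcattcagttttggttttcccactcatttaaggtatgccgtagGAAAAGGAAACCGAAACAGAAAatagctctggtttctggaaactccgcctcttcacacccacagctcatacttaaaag
Gbp2 (chr3:142620523-142620662, plus strand): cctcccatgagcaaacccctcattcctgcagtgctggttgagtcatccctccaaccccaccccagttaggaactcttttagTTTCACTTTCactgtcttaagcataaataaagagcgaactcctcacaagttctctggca
The match of Rsad2 begins 120 bases before the start site, those of Ifit1 104 and 85 bases before it, the 3 overlapping matches of Isg15 78, 72 and 66 bases before it, and that of Gbp2 59 bases before it. The window of Ifi44 holds no match to these letters. Oas2, Mx1, Mx2, Zbp1, Usp18, Dhx58, Rtp4, Parp9 and Parp14 had no window in the table used.

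Sites for the deleted microRNAs were looked up in each gene's longest 3′ untranslated region in GENCODE M21. The mature microRNAs are shown with bases 2 to 8, the seed, in capitals. The miR-27 members share a seed. No sequence of miR-23b-3p was in the source used, so it is not shown.
mmu-miR-23a-3p: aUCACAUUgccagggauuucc
mmu-miR-27a-3p: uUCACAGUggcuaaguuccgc
mmu-miR-27b-3p: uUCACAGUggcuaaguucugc
mmu-miR-24-3p: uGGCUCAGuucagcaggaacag
An 8-base site for miR-23 (AATGTGAA) was found in 3 of the 45 genes (6.67%, against 7.14% of 14796 tested genes), for miR-27 (ACTGTGAA) in 2 (4.44%, against 6.41%) and for miR-24 (CTGAGCCA) in 6 (13.3%, against 8.77%). Among the 4 genes that rose, Rsad2 held a miR-23 and a miR-27 site, and Oas2, Ifi44 and Ifit1 held no 8-base site. Gbp7 was the only other gene of the 45 with 8-base sites for miR-23 and miR-27. The shorter 7-base sites, which match the seed alone, were found for miR-23 in 5 genes (11.1%, against 16.8% of all), for miR-27 in 9 (20%, against 17.8%) and for miR-24 in 10 (22.2%, against 19.2%). By that measure Ifit1 also held a miR-27 site and Oas2 a miR-24 site, and Ifi44 held none. The sites of Rsad2 begin at bases 1001 and 272 of an untranslated region of 2660 bases and are shown with the site in capitals.
Rsad2, miR-23 site: gcaaaagacagAATGTGAActa
Rsad2, miR-27 site: gtgtggattttACTGTGAAtcc
The 8-base miR-24 sites were in Ifnar2, Stat2, Irf1, Ifih1, Cmpk2 and Parp14, of which 0 passed the threshold. The untranslated regions of the 45 genes had a median of 944 bases and those of all tested genes 1182.

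The receptor genes went the other way from most of the list, although neither passed the threshold. Ifnar1, the receptor chain that binds the kinase TYK2, measured 5493, 5645, 5493 and 5514 in knockout replicates 1 to 4, against 6734, 6024, 5866 and 6875 in control replicates 1 to 4. The knockout libraries lay close together, with replicate 2 the highest, and all below the lowest control library. The difference was -0.20 (SE 0.06, adjusted p = 0.108), and DESeq2 gave adjusted p = 0.0293. Ifnar2, the chain with the higher affinity for the ligand, measured 3849, 3851, 3803 and 3903 in knockout replicates 1 to 4, against 3934, 4008, 3904 and 4384 in control replicates 1 to 4. The groups were separate, but knockout replicate 4 and control replicate 3 nearly touched. Its difference was -0.07 (SE 0.05, adjusted p = 0.433; -0.04 without control replicate 4). In bulk libraries fewer cells of a type and less RNA per cell cannot be told apart, and the summed markers of macrophages were lower in knockout in the same libraries, as given below.

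Of the 4 transcription factors of the list, 0 passed and 4 had positive differences. Irf7, the factor that amplifies interferon alpha production and is itself interferon-induced, measured 2014, 1677, 1756 and 1414 in knockout replicates 1 to 4, against 1020.0, 1202, 1413 and 1710.1 in control replicates 1 to 4. Control replicate 4 lay above knockout replicates 2 and 4, and the difference was 0.38 (SE 0.16, adjusted p = 0.225; 0.50 without control replicate 4). Stat2, part of the ISRE-binding complex, measured 3284, 3231, 3654 and 2931 in knockout replicates 1 to 4, against 2319, 2674, 2872 and 3659.7 in control replicates 1 to 4. Control replicate 4 was the highest library of Stat2, and the difference was 0.20 (SE 0.13; 0.32 without that library). Irf9, the DNA-binding part of that complex, differed by 0.06 (SE 0.07; 0.10 without control replicate 4). Irf1, which responds to interferon gamma, spread from 2680.0 to 6615 over the control libraries alone, a range that contains all 4 knockout libraries (3757 to 4984). Its difference was 0.20 (SE 0.25) with all libraries and 0.47 without control replicate 4.

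The sensors of foreign nucleic acid gave 0 calls among 4 genes. Ddx58, which encodes the RNA helicase RIG-I, measured 1985, 1813, 1803 and 1844 in knockout replicates 1 to 4, against 1446, 1641, 1628 and 1603 in control replicates 1 to 4. The groups were separate, with a difference of 0.24 (SE 0.06, adjusted p = 0.0652). Dhx58, the related regulator LGP2, measured 1229, 1231, 1340.2 and 1023 in knockout replicates 1 to 4, against 936, 951, 1066 and 1282 in control replicates 1 to 4. The groups of Dhx58 overlapped through knockout replicate 4 and control replicate 4 (0.19, SE 0.12). Ifih1, the sensor MDA5 of long double-stranded RNA, differed by 0.08 (SE 0.08; 0.15 without control replicate 4). Zbp1, a sensor of Z-form nucleic acid that can start necroptosis, measured 722, 567, 775 and 426 in knockout replicates 1 to 4, against 297, 305, 351 and 1041 in control replicates 1 to 4. Control replicate 4 was the highest of all 8, and the other controls were all below the lowest knockout library. The difference of Zbp1 was 0.51 (SE 0.39, adjusted p = 0.502) with all libraries and 0.93 (adjusted p = 0.0567) without control replicate 4.

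Among 11 effectors that act on translation and RNA decay, Oas2 and Ifit1 rose, 0 fell and 9 did not pass. The relatives of Ifit1 in the same cluster on chromosome 19 had differences of 0.38 for Ifit2 (SE 0.16), 0.52 for Ifit3 (SE 0.16) and 0.62 for Ifit3b (SE 0.16, adjusted p = 0.0683). Ifit3 measured 1025 to 1352 in knockout and 588 to 989 in control libraries, and Ifit3b 299 to 326 and 151 to 260.2, without overlap. Ifit3 shares 61.8% of its 31-base words with Ifit3b, so how reads were divided between this pair is uncertain. Isg20, an RNA exonuclease, differed by 0.45 (SE 0.13, adjusted p = 0.0936). The oligoadenylate synthetases were uneven beside Oas2: Oas3 differed by 0.33 (SE 0.17), Oas1a by 0.03 (SE 0.09; 0.05 without control replicate 4), and the relatives Oasl1 and Oasl2, which make no 2-5A or little of it, by 0.12 (SE 0.11; 0.19 without control replicate 4) and -0.02 (SE 0.11; 0.06 without control replicate 4). Oas1a shares 68.7% of its words with Oas1g and is uncertain for the same reason. Eif2ak2, the kinase PKR that stops translation when it binds double-stranded RNA, measured 1692 to 1880.2 in knockout and 1700.1 to 1794 in control libraries (0.05, SE 0.05).

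Of 6 effectors on viral replication and budding, Rsad2 rose and 5 did not pass. Mx1, a dynamin-like GTPase that traps influenza virus components, had the largest difference of the 45 genes. It measured 635, 629, 628 and 401 in knockout replicates 1 to 4, against 233, 255, 379 and 424 in control replicates 1 to 4. Knockout replicate 4 lay far under the other knockout libraries and below control replicate 4, and the difference of 0.85 (SE 0.23) had adjusted p = 0.08. Mx2, its relative, measured 183, 209, 199.8 and 181 in knockout replicates 1 to 4, against 127, 148, 159 and 137 in control replicates 1 to 4. The groups of Mx2 were separate (0.44, SE 0.11, adjusted p = 0.0676). Cmpk2, a mitochondrial nucleotide kinase encoded beside Rsad2 on chromosome 12, was separate as well, at 747 to 829 in knockout and 593 to 737 in control libraries (0.24, SE 0.08, adjusted p = 0.123). Samhd1, which degrades the nucleotides that viruses need, measured 14297, 14380.4, 14895 and 12926 in knockout replicates 1 to 4, against 12309, 12603, 14190.1 and 19438 in control replicates 1 to 4. Without control replicate 4, which was the highest, its difference of -0.03 (SE 0.14) became 0.12. Bst2, or tetherin, which holds budding virions on the cell surface, measured 3779.8, 2342, 3399 and 2969 in knockout replicates 1 to 4, against 2246, 2652, 2733 and 3428 in control replicates 1 to 4. Its groups overlapped (0.17, SE 0.16; 0.28 without control replicate 4).

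The ISG15 and ubiquitin genes gave 0 calls of 4. Isg15, the ubiquitin-like modifier, measured 511, 333, 524 and 332 in knockout replicates 1 to 4, against 236, 295, 328 and 369 in control replicates 1 to 4. Knockout replicates 1 and 3 stood apart from replicates 2 and 4, which lay inside the control range (0.45, SE 0.20, adjusted p = 0.233). Usp18, the protease that removes ISG15 and also damps receptor signalling, measured 315, 279, 251 and 239.8 in knockout replicates 1 to 4, against 169, 255, 219 and 215 in control replicates 1 to 4. Knockout replicates 3 and 4 lay below control replicate 2 (0.34, SE 0.14, adjusted p = 0.212). Trim25, a ubiquitin ligase that acts on RIG-I, measured 8014, 7035, 7637 and 9422 in knockout replicates 1 to 4, against 7893, 7557, 7464 and 7314 in control replicates 1 to 4. Its groups overlapped (0.08, SE 0.08), and Herc6, the ISG15 ligase of mice, differed by 0.07 (SE 0.06; 0.11 without control replicate 4).

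The 3 genes of the ADP-ribosylation group also gave 0 calls. Parp14, an ADP-ribosyltransferase, measured 6542, 6209.9, 6565 and 6252 in knockout replicates 1 to 4, against 5259, 5315, 5898 and 6889 in control replicates 1 to 4 (0.14, SE 0.08; 0.22 without control replicate 4). Its relative Parp9 measured 1904, 1951, 2142 and 1973 in knockout replicates 1 to 4, against 1807, 1827, 1873 and 2269 in control replicates 1 to 4 (0.04, SE 0.08; 0.12 without control replicate 4). Dtx3l, the ubiquitin ligase that pairs with PARP9, measured 1955, 1860.5, 2113 and 1925 in knockout replicates 1 to 4, against 1705, 1616, 1730.0 and 2175 in control replicates 1 to 4 (0.13, SE 0.09; 0.22 without control replicate 4). In each of these 3 genes control replicate 4 was the highest of the 8 libraries. Exons of Parp9 and Dtx3l overlap on opposite strands, as do exons of Tap1 and Psmb9, and no source used here says whether reads were counted by strand, so reads of the partners cannot be told apart there. The same holds for Irf7 with Phrf1 and Dhx58 with Dhx58os.

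Of 6 antigen-processing and guanylate-binding protein genes 0 passed, and control replicate 4 was the highest control in each. Gbp2, a GTPase that attacks the membranes around intracellular microbes, measured 3678, 2854, 4608 and 2666 in knockout replicates 1 to 4, against 1579, 1985, 2259 and 6794 in control replicates 1 to 4. Control replicate 4 was higher than every knockout library, and the other controls were lower than every knockout library. The difference of Gbp2 was 0.36 (SE 0.41, adjusted p = 0.668) with all libraries and 0.81 (adjusted p = 0.0835) without control replicate 4. Gbp3 measured 2075, 1487, 2485 and 1558 in knockout replicates 1 to 4, against 887, 1223, 1291 and 2620.5 in control replicates 1 to 4. Control replicate 4 was again the highest library. The difference of Gbp3 was 0.43 (SE 0.31) with all libraries and 0.73 (adjusted p = 0.113) without control replicate 4. Gbp7 measured 2506, 2038, 2854 and 2058 in knockout replicates 1 to 4, against 1239, 1612, 1765 and 2744 in control replicates 1 to 4, with knockout replicate 3 the highest of the 8. Its difference was 0.41 (SE 0.22) with all libraries and 0.62 (adjusted p = 0.0872) without control replicate 4.

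Tap1, which carries peptides into the endoplasmic reticulum for MHC class I, measured 3967, 2754, 4296 and 2726 in knockout replicates 1 to 4, against 2192, 2623, 2867 and 6446 in control replicates 1 to 4. Its difference was 0.07 (SE 0.32) with all libraries and 0.40 without control replicate 4. Its gene lies in the MHC region beside those of the immunoproteasome subunits. Psmb8, a catalytic subunit of the immunoproteasome, measured 4950.3, 3896, 5326 and 3811 in knockout replicates 1 to 4, against 3366, 3861, 3868 and 6929 in control replicates 1 to 4 (0.04, SE 0.22; 0.27 without control replicate 4). Psmb9, another such subunit, measured 2264, 1504, 2178 and 1494 in knockout replicates 1 to 4, against 1069.9, 1407, 1439 and 2770.2 in control replicates 1 to 4 (0.22, SE 0.28; 0.50 without control replicate 4). Control replicate 4 was the highest library for these 3 genes, and control replicate 1 the lowest. The knockout group was split along the same genes, with replicates 1 and 3 above replicates 2 and 4 in Tap1, Psmb8, Psmb9, Gbp2, Gbp3 and Gbp7.

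Leaving out control replicate 4 raised the median difference of the 45 genes to 0.32, and leaving out control replicate 1 lowered it to 0.11. Rsad2 was the only gene of the list called without control replicate 4 (adjusted p = 0.0216; 0.687% of all genes were called higher). Among the 5 remaining induced genes Ifi44 rose and 4 did not pass. Xaf1, a promoter of apoptosis, measured 1045, 919, 967 and 958 in knockout replicates 1 to 4, against 648, 841, 815 and 809 in control replicates 1 to 4. Sp100, a scaffold of nuclear bodies, measured 5156, 5056, 4956 and 4984 in knockout replicates 1 to 4, against 3623, 4587, 4631 and 4621 in control replicates 1 to 4. Neither gene's groups overlapped. Their differences were 0.33 (SE 0.09, adjusted p = 0.0855) and 0.21 (SE 0.08, adjusted p = 0.18), and control replicate 1 was the lowest library in each. Ifi35 differed by 0.14 (SE 0.07) and Rtp4, a receptor chaperone, by 0.12 (SE 0.11; 0.20 without control replicate 4).

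**Figure D3:**
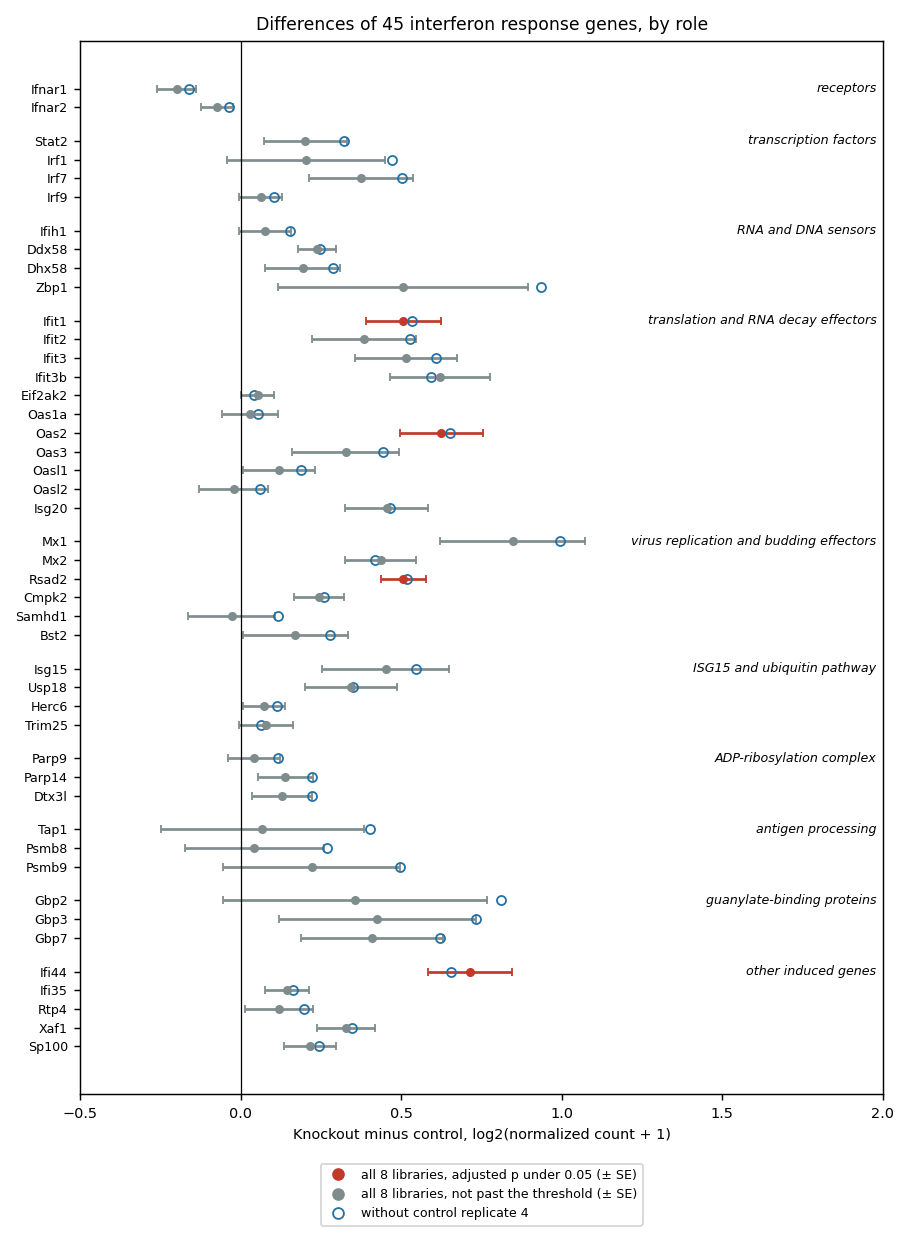
Knockout minus control differences of log2(normalized count + 1) for the 45 genes (down the page, by role), as filled points with SE bars from the fit of all 8 libraries, red where the adjusted p was under 0.05 (4 genes), and as open points from the fit without control replicate 4. The receptors lie left of 0, nearly all other genes right of it, and the open points move furthest right for Zbp1, Gbp2, Tap1, Gbp3, Psmb9 and Irf1. The fit without control replicate 1, where the median difference was 0.11, is not drawn.

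Other genes of the interferon pathway, 119 measured and none a member of the list, had smaller differences on the median. Of these 0 rose and 2 fell, where 1.24% of all genes tested were called higher and 2.38% lower, and 117 did not pass. The difference was positive for 72 (60.5%, against 50.5% of all genes), and the median was 0.06. Groups were separate for 7 higher genes (5.88%) and 5 lower genes (4.2%), beside the 5.52% and 8.21% of all genes tested. Irf5, a transcription factor that macrophages use downstream of Toll-like receptors, fell to 4963, 5512, 5782 and 5588 in knockout replicates 1 to 4, against 7222, 6482, 6438 and 7473 in control replicates 1 to 4. The groups of Irf5 did not overlap (-0.34, SE 0.07, adjusted p = 0.0372). Il10rb, a receptor chain shared by interleukin 10 and interferon lambda, fell to 5828, 6279, 6243 and 5933 in knockout replicates 1 to 4, against 8115, 6858, 7069 and 7370.3 in control replicates 1 to 4. It had a difference of -0.27 (SE 0.06, adjusted p = 0.0466), and the calls of Irf5 and Il10rb were each lost in 7 of the 8 fits of 7 libraries and with each library scaled to the same total.

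The genes of that list with the smallest p in the higher direction were Ifi213, a DNA-binding protein of the interferon-inducible p200 family, and Helz2, a helicase. Ifi213 measured 491, 486, 422 and 306 in knockout replicates 1 to 4, against 111, 158, 205 and 322 in control replicates 1 to 4. Control replicate 4 lay above knockout replicate 4, and the difference was 1.18 (SE 0.30, adjusted p = 0.0711). Without control replicate 4 it passed (1.45, adjusted p = 0.0278), as 1 of 6 higher genes of that list. In that fit 0.687% of all genes tested were called higher. Helz2 measured 4226, 3433, 3269 and 4126 in knockout replicates 1 to 4, against 2204, 2994, 3046 and 2619.5 in control replicates 1 to 4, without overlap (0.47, SE 0.12, adjusted p = 0.0734). H2-D1, an MHC class I heavy chain and per kilobase the most abundant of the 119, measured 122189, 87161, 114289 and 95478 in knockout replicates 1 to 4, against 90183, 104420.0, 108537 and 165725 in control replicates 1 to 4. Its highest value was again in control replicate 4, and its difference was -0.14 (SE 0.20) with all libraries and 0.04 without that library. That library was the highest control for 92 of the 119 genes (77.3%), against 27.9% of all genes tested. The receptor kinases Jak1 and Tyk2, chosen after their values were seen, differed by -0.01 (SE 0.05) and -0.03 (SE 0.07). Transcripts of interferons (Ifnb1, Ifna4, Ifne, Ifng) were not analysed here.

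Markers of other cells moved with the groups. The 7 macrophage markers other than Lyz2 summed to 182433 to 195647 in knockout and 211765 to 281915 in control libraries, with 3 of 7 called lower. All 8 endothelial markers had positive differences, with sums of 99443 to 143840 in knockout and 61666 to 108226 in control libraries, and all 8 fibroblast markers did too, at 129383 to 201422 and 95170 to 162928. The same held for 7 of 7 adipocyte markers (1810 to 2273 in knockout, 1248 to 1725 in control) and 6 of 6 B cell markers (9981 to 25325 and 7451 to 17705). For 10 of 10 measured T and NK cell markers the sums were 476 to 1493 in knockout and 409 to 924 in control libraries, much of it Cd4. The sums thus follow Cd4, which differed by 0.16 (SE 0.56). The median difference of these 10 markers was 0.83, the largest of the marker lists. None of these 5 lists had a member past the threshold. Conventional dendritic cell markers were higher in 6 of 7 (2592 to 3042 in knockout, 1676 to 2536 in control), with 0 called. Much of that sum was Zbtb46, which differed by 0.64 (SE 0.19), while Batf3 differed by -0.08 (SE 0.19). Like the endothelial Cdh5, Zbtb46 was highest in knockout replicates 1 and 4 and lowest in control replicate 1. Of 7 measured plasmacytoid dendritic cell markers, whose cells are strong interferon producers, Runx2 fell and 6 did not pass (7634 to 8802 in knockout and 6999 to 8195 in control, most of it Tcf4). Of these 7 markers 5 had positive differences, while Runx2 (-0.54) and Cox6a2 (-0.48) had negative ones. Siglech, chosen after its values were seen, had the largest positive difference of that list (0.98, SE 0.33, adjusted p = 0.142). It measured 135, 257, 176 and 89.0 in knockout replicates 1 to 4, against 67.9, 89.4, 109 and 52.9 in control replicates 1 to 4. Of the neutrophil markers 3 were measured and 0 called (926 to 1621 in knockout, 877 to 1807 in control).

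In single libraries the marker sums ran with the interferon genes for some cell types and against them for others. Control replicate 4, the highest control for most interferon genes, had the highest control sums of T and NK cell markers (924, against 409 to 483 in the other controls), of B cell markers and of conventional dendritic cell markers. It also had the lowest fibroblast sum of the 8 libraries (95170) and, after control replicate 1, the lowest endothelial (73743) and adipocyte (1326) sums. Clec9a, a marker of conventional dendritic cells chosen after its values were seen, measured 239 in that library and at most 63.7 in the other controls. Of the same list, Flt3, Xcr1, Ccr7 and Batf3 were also highest among the controls there. Zbtb46 (752) and Cd209a (178) instead lay below control replicates 2 and 3. Control replicate 1, the lowest library for most interferon genes, had the lowest endothelial and adipocyte sums and the highest control sum of fibroblast markers (162928). Knockout replicate 3, with the highest interferon median, had the lowest knockout sums of B cell (9981), endothelial (99443) and adipocyte (1810) markers and the highest fibroblast sum (201422). Macrophage markers without Lyz2 summed highest of all 8 libraries in control replicate 4 (281915), followed by control replicate 1 (247000). In knockout replicates 1 to 4 they summed to 193729, 187577, 195647 and 182433, the order of the interferon medians there. Neutrophil markers summed highest of the 8 libraries in control replicate 4 (1807) and lowest in control replicate 1 (877). The part of these cells in the interferon differences was not tested.

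**Figure D4:**
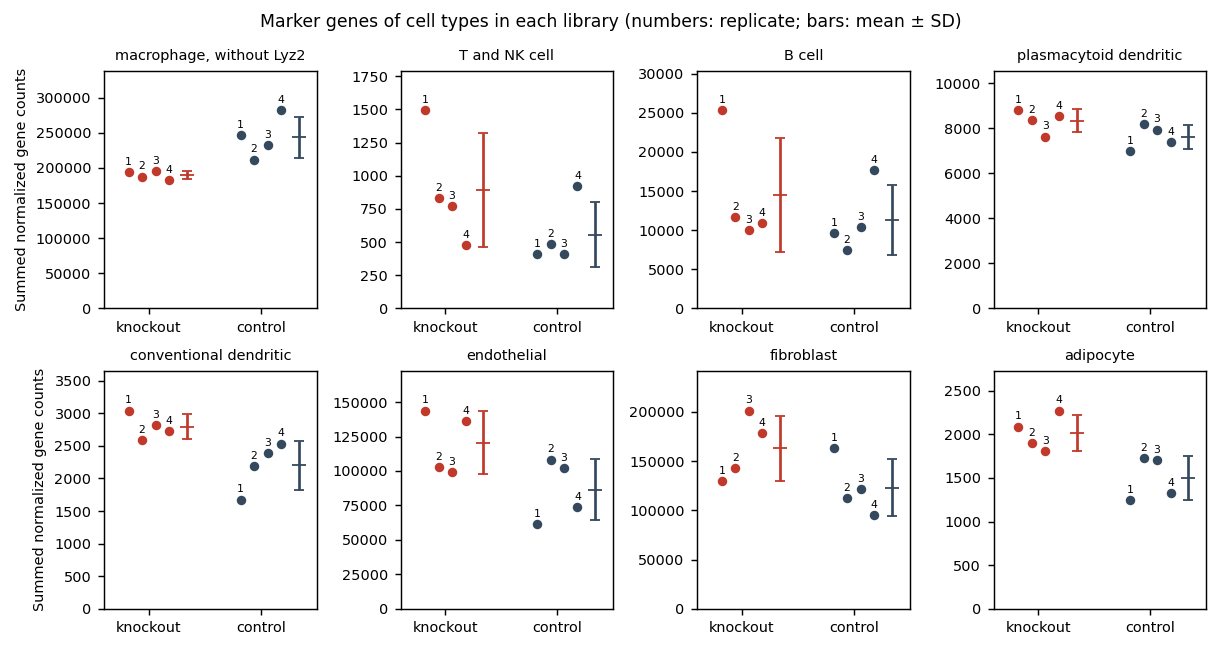
Summed normalized gene counts (vertical axes, starting at 0) of marker lists in each library, knockout left of control, with replicate numbers beside the points and the mean ± SD (n = 4) as bars. Macrophage markers without Lyz2 lie lower in knockout (at most 195647) than in control (at least 211765), and the other lists lie higher on average in knockout, with overlap for all but conventional dendritic and adipocyte markers. Much of the conventional dendritic sum is Zbtb46.

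Levels of the genes ranged widely per kilobase of merged exons. On that scale Bst2 was the most abundant at 3458 normalized counts per kilobase in knockout and 3062 in control, followed by Samhd1 (1544 and 1599). On the mean of the groups Trim25 came next (1395 and 1313), although Psmb8 lay above it in control (1329.7 and 1333). Of the 4 genes that rose, Oas2 lay above the median of the list and the other 3 below it. Oas2 stood at 578 in knockout and 375 in control, Rsad2 at 319.7 and 225, Ifit1 at 152 and 106, and Ifi44, the least abundant of the 45, at 39.2 and 23.9 normalized counts per kilobase. Every gene of the list had at least 129 reads in each library.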

How the data were processed

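The 45 members and the other lists were chosen with earlier results of these data known. The authors deposited normalized gene counts, a signal that is never negative, with a column per library. FastQC, cutadapt, Salmon, DESeq2 and the build mm10 are named without roles in the submitters' processing notes. In the deposited columns 100% of values were whole reads divided by a factor per library, within 0.01 reads. In control replicate 4 the factor lay near 1, with 1 read at 0.998 normalized counts. The smallest deposited value in each library is 1 read. The authors' table of a comparison holds, per the file headers, the signal averaged over libraries, a control/knockout fold change in log2 (so with signs turned against those used here), score columns and p-values.

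Genes with a mean of at least 10 were tested with limma 3.58.1 (R 4.3.3; eBayes with trend) on log2(value + 1), two-sided, with Benjamini-Hochberg adjustment over 15862 genes and a threshold of 0.05. The 1 added to each value before taking log2 understates changes of low genes. Alternatives were pseudocounts of 0.5 and 5, no filter or a mean of at least 50, equal totals, quantile normalization, array weights, the replicate block, edgeR 4.0.16 and DESeq2 1.42.0 on recovered reads, and leaving out each library. The fit was tested on simulated data. Positions, exon lengths and 3′ untranslated regions came from GENCODE M21 (mm10), and promoters and microRNAs from RefSeq (GRCm38.p6). Values in every library are given for genes past the threshold, the 2 smallest p in each role, the 3 most abundant per kilobase and genes with a library far from its group. Of the other pathway genes, those past the threshold, the 2 smallest p in each direction and the most abundant are named. Lists of marker genes covered macrophages, plasmacytoid and conventional dendritic cells, T and NK cells, B cells, neutrophils, endothelium, fibroblasts and adipocytes. Some results are not reported here.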

Additional observations from a re-analysis of the deposited data

Results flagged for a closer look

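In 9 of the 90 groups of 4 libraries formed by the 45 genes, a single library lay so far from the other 3 that its gap to the nearest, as a share of the whole range, exceeded Dixon's 95% critical value. Chance flags about 1 in 20 such groups, and genes of a shared library are not independent. Control replicate 4 stood high in 5 of them: Zbp1 at 1041, Parp9 at 2269, Tap1 at 6446, Psmb8 at 6929 and Gbp2 at 6794 normalized counts. Control replicate 1 stood low for Xaf1 at 648 and Sp100 at 3623, genes whose other controls lay close together. Knockout replicate 4 stood low for Mx1 at 401, and knockout replicate 2 stood high for Ifnar1 at 5645, in a group whose other 3 libraries lay between 5493 and 5514. What sets these libraries apart was not tested.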

How the results depend on the processing

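The count of 4 interferon response genes called higher was 2 with quantile normalization, 7 with limma's array weights, 0 with the replicate number as a block and 11 with DESeq2, and it ran from 1 to 3 in the fits that left out 1 library. The count of 0 called lower was 1 with DESeq2 and 0 in each fit without 1 library. Of the other pathway genes, 0 called higher became 3 with equal library totals, 1 with quantile normalization, 6 with array weights, 9 with DESeq2 and 0 to 6 without 1 library. The 2 called lower became 0 with equal library totals, quantile normalization or the block, 1 with each edgeR setting (TMM, TMM without a filter, DESeq2 size factors), 5 with DESeq2 and 0 to 3 without 1 library. Of all genes 573 were called, against 931 with array weights, 7 with the block, 1557 with DESeq2 and 163 to 502 without 1 library. Equal totals gave 245 higher and 244 lower calls (50.1% higher, against 34.2%). The causes were not tested.

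Same-numbered libraries of the groups correlated at -0.2, -0.199, -0.036 and -0.293 in their deviations from the group means. Libraries with different numbers correlated at -0.257 to 0.344. These values gave no sign that the numbers pair the samples, but a lack of correlation cannot settle it. With the block all 4 calls were lost, that of Rsad2 at adjusted p = 0.137. Over 50 named genes and 20 alternatives, 902 of 1000 values kept their direction and side of the threshold, 53 no longer passed, 17 newly passed and 28 changed sign. The sign changes were in small differences. With equal totals Samhd1 was 0.0307 and Oasl2 0.036, and with quantile normalization Samhd1 was 0.0381, Oasl2 0.000638 and H2-D1 0.12. Tap1 was -0.035 with edgeR and TMM, -0.0348 without a filter, -0.0393 with DESeq2 size factors and -0.0398 with DESeq2, and Psmb8 -0.00301 and -0.00328 with these size factors and DESeq2. Without 1 library the differences ran from -0.0400 to 0.0886 for Oas1a, -0.0969 to 0.0597 for Oasl2, -0.10 to 0.12 for Samhd1, -0.000615 to 0.14 for Trim25, -0.12 to 0.40 for Tap1, -0.078 to 0.27 for Psmb8 and -0.25 to 0.0437 for H2-D1. Each interferon response gene had at least 129 reads in each library, and 4 libraries a group limit the precision.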
